A study of Mus musculus with 12 samples.

Results

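The M1 transcriptome of control macrophages was read from the 6 libraries labelled ErbB4-floxxed without Cre, of 12 libraries in the series, and is called ErbB4FF here. The members were chosen by the genotype label alone. Each library came from bone marrow-derived macrophages (BM-Mɸs) of 1 C57Bl/6 mouse that carried the floxed ErbB4 allele, and each of the 6 mice came from a different litter. Bone marrow was grown in medium conditioned by CMG14-12 cells, a source of M-CSF, given IFN-γ at 100 U/mL for 16 h, and then LPS at 100 ng/mL for a further 6 h. All 6 cultures had the same treatment, with no unstimulated or IL-4 culture beside them, so the values are levels after activation and not inductions. The other 6 libraries came from littermates that also carry LysMCre, a Cre driven from the lysozyme M locus in myeloid cells, and the genotypes were not compared. Poly(A) RNA was sequenced in stranded libraries of single reads, and levels are given in TPM, a unit that divides reads by transcript length and scales every library to a fixed total, so that levels of different genes can be compared within a library. Libraries are numbered 1 to 6 as on the labels. Each has its own batch letter, so litter, mouse and batch cannot be told apart, and the age and sex of each mouse are not on the labels.

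M1 activation is the classical, inflammatory state of a macrophage. IFN-γ acts through its receptor on IRF1, guanylate-binding proteins, immunoproteasome subunits and antigen presentation, while LPS acts through CD14, MD-2 and TLR4 on NF-κB and on type I interferon, which yield cytokines, chemokines and the enzymes that make nitric oxide, itaconate and prostaglandins. ErbB4 is a receptor tyrosine kinase for neuregulins.

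The labelled cell type was first checked against its markers. Fth1, the ferritin heavy chain (chr19:9980598-9985098, GRCm38), was the most abundant gene in all 6 libraries, with a lowest value of 21180 TPM, a median of 25680 TPM and a highest value of 43296 TPM. Lyz2, the macrophage lysozyme (chr10:117277331-117282321), was between 2964 TPM in library 6 and 13257 TPM in library 5, with a median of 8097 TPM. The surface protein F4/80, encoded by Adgre1 (chr17:57358691-57483527), was at 873 ± 127 TPM (SD, n = 6). The endosomal glycoprotein gene Cd68 (chr11:69664213-69666153) was at 446 ± 81.7 TPM (SD, n = 6). The activation markers Il12b (chr11:44400063-44414033), the p40 subunit of IL-12 and IL-23, and Tnf (chr17:35199381-35202007) were above 0 in every library as well, at 405 to 8490 TPM and 794 to 5125 TPM. Between the lowest and the highest library Adgre1 spanned 1.6-fold, Cd68 1.61-fold, Lyz2 4.47-fold, Tnf 6.46-fold and Il12b 21-fold, so identity markers were not all steady.

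Each marker list of other cells summed to at most 186 TPM in any library, against at least 16540 TPM for the macrophage identity list. Of 12 neutrophil genes, 5 averaged 1 TPM or more, a share close to that of all genes (8694 of 22243). They were led by S100a8 at 49.6 ± 29.0 TPM and S100a9 at 32.9 ± 30.1 TPM, while Ly6g had a mean of 0.108 TPM. The summed level of the neutrophil list was 186 TPM in library 5, 155 TPM in library 6 and 42.5 to 74.5 TPM in the others. Libraries 5 and 6 were also the highest for Marco and Ccl2. The part of neutrophils in those values was not tested. T and NK cell markers summed to 0.305 to 2.69 TPM, with Trac listed at 0 in all 6 libraries and 1 of 10 genes (Cd4, mean 1.22 TPM) at 1 TPM or more. B cell markers summed to 0.297 to 6.85 TPM with Ms4a1 listed at 0, erythroid markers to 0 to 1.11 TPM, mast cell and basophil markers to 0 to 5.20 TPM, and epithelial markers to 0.117 to 2.32 TPM. Stromal RNA was highest in library 1, where Col1a2 and Col1a1, the chains of type I collagen, reached 46.5 and 32.2 TPM, and lowest in library 2, at 5.95 and 3.99 TPM. The dendritic cell list summed to 39.4 to 105 TPM, mostly from Ccr7 (41.7 ± 21.2 TPM) and Xcr1 (11.1 ± 7.56 TPM), with Siglech and Cd209a listed at 0. The paper places Ccr7 in its set of M1 genes. Pf4, a platelet chemokine, was at 4.78 to 37.9 TPM, the osteoclast phosphatase gene Acp5 at 80.0 TPM in library 6 and 8.32 to 35.0 TPM in the others, and the endothelial receptor gene Kdr at 1.98 to 18.7 TPM. In bulk RNA, fewer cells of a type and less RNA per cell cannot be told apart. A level listed at 0 is no proof of absence, as the depth is not in the table.

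Library 5 stood apart from the rest in its correlations and lengths, and library 3 had the fewest genes above 0 (10910, against 11645 to 12830 in the others) and the fewest at 1 TPM or more (8145). Across the 8694 genes that averaged 1 TPM or more, the log2 values of 2 libraries correlated between 0.835 and 0.967 (Pearson's r across genes, which are not independent and share a library; 15 pairs), and the 5 pairs with library 5 lay between 0.835 and 0.913. Levels in library 5 followed transcript length. Relative to each gene's median library, genes with a listed transcript under 1 kb were higher in library 5 by a median log2 of 0.77, and those of 4 kb or more were lower, at -0.50. The same 2 medians in library 6 were 0.24 and -0.12, and those of libraries 1 to 4 lay between -0.23 and -0.04 for the short and between 0.04 and 0.08 for the long transcripts. Of the 75 ribosomal protein genes that averaged 1 TPM or more, which are short, 70 were highest in library 5, against 30.9% of all genes. Spreads of the main lists are given with and without library 5. With the trend over length taken away, a setting chosen after seeing the data, the median SD of log2 over libraries was 0.39 for all genes, against 0.44 with it. Mitochondrial genome genes held 3.86 ± 0.683% of the TPM in the table and ribosomal protein genes 6.28 ± 1.63% (SD, n = 6). The proliferation list had 13 of 14 genes at an average of 1 TPM or more, with summed levels of 146 to 263 TPM.

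**Figure D1:**
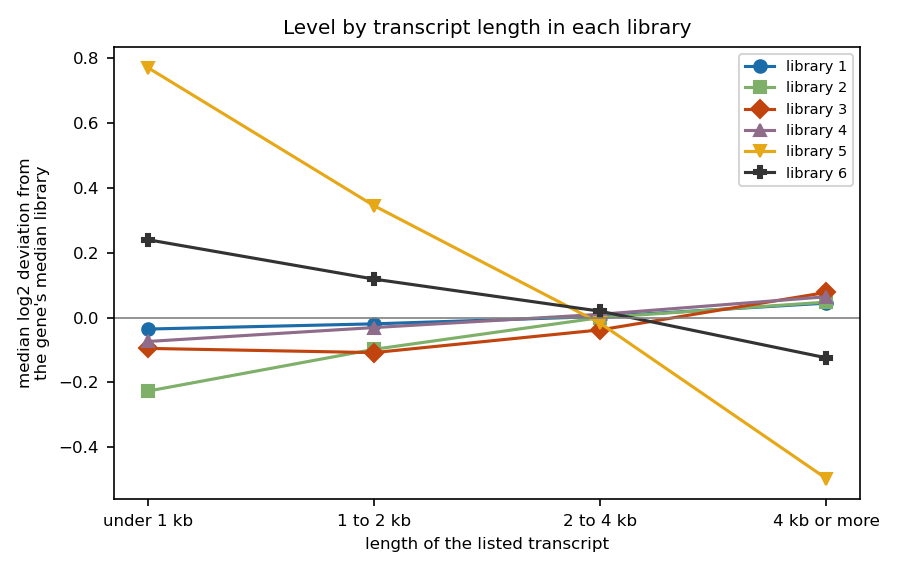
Median deviation of log2(TPM + 0.5) from each gene's median library (vertical axis) in 4 classes of transcript length (horizontal axis), for 8694 genes and each of the 6 ErbB4FF libraries (lines). Library 5 falls from 0.77 in transcripts under 1 kb to -0.50 in those of 4 kb or more, library 6 falls less, and libraries 1 to 4 stay between -0.23 and 0.08.

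A small number of genes held much of the RNA. The 20 most abundant genes held 22.9 ± 2.21% of the TPM in the table (SD, n = 6), with 27.1% in library 5 and 20.9 to 22.8% in the others, and the 100 most abundant held 44.2 ± 2.47%. A mean of at least 10 TPM was reached by 4193 genes, of at least 100 TPM by 900 and of at least 1000 TPM by 93. Of the 20 places, 7 genes were among the 20 most abundant in every library and 37 in at least 1 library, and 63 and 149 were so for 100 places.

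After Fth1 came Ccl5, a chemokine for T cells, at 15338 ± 5088 TPM (SD, n = 6), which ranked between 2 and 3 in every library. B2m, the light chain of MHC class I, had 11082 ± 912 TPM, with its lowest value of 9604 TPM in library 6 and its highest of 12409 TPM in library 5. Saa3, an acute phase serum amyloid A gene, had nearly the same mean (11067 TPM) from very different libraries, with 2539 TPM in library 1, 3012 TPM in library 3, 10415 and 10653 TPM in libraries 2 and 4, 14276 TPM in library 6 and 25506 TPM in library 5. The 2 lowest libraries for Saa3 were thus the 2 highest for Il12b and Tnf. The other 16 genes of the 20 were Lyz2, the ferritin light chain Ftl1, Il1b, the mitochondrial oxidase subunits mt-Co1, mt-Co3 and mt-Co2, Actb, Prdx1, Ccl3, Acod1, Apoe, Ctss, Eef1a1, the complement chain C1qb, Fcer1g and Mmp13, with means of 3548 to 8277 TPM. Acod1, which makes itaconate, was at 3561 to 5828 TPM (SD of log2 0.23), and C1qb at 3582 to 4606 TPM (SD of log2 0.16), so their libraries differed little. Mmp13, a collagenase, was at 3698 to 4488 TPM in 5 libraries and at 971 TPM in library 5, and its SD of log2 fell from 0.85 to 0.12 without that library.

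**Figure D2:**
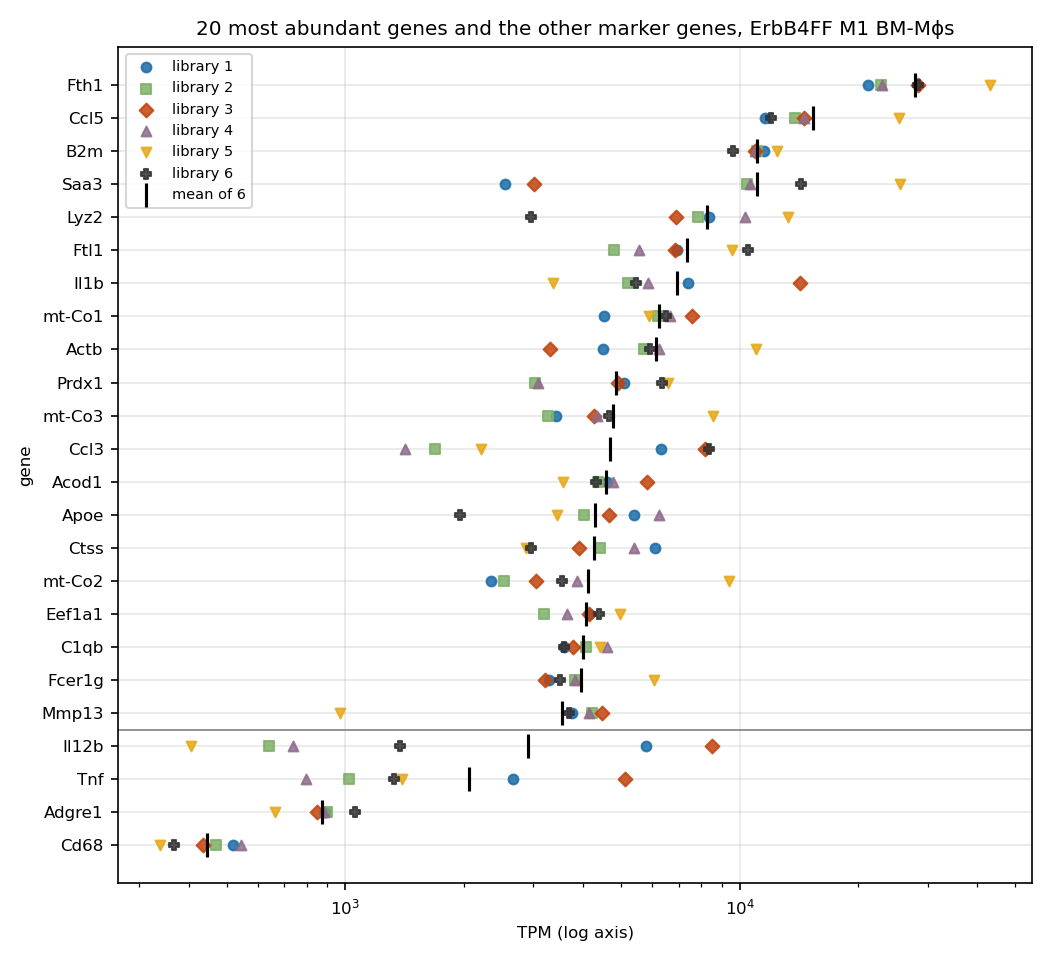
Level in TPM (log axis) of the 20 genes with the highest mean, and below the line the 4 other marker genes, with 1 symbol for each of the 6 ErbB4FF libraries and a bar for their mean. Fth1 leads in every library, B2m and C1qb have tight symbols, and Saa3, Ccl3, Il12b and Tnf are spread widely, with Saa3 lowest and Il12b highest in libraries 1 and 3.

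The spread between libraries was measured as the SD of log2(TPM + 0.5) over the 6 libraries. Its median over the 8694 genes was 0.44, with quartiles of 0.29 and 0.69, and 0.34 without library 5. It was 0.52 for genes with means of 1 to 10 TPM and 0.38 to 0.39 in each class above that, up to 1000 TPM and more. Glycolytic genes had a median of 0.32, macrophage identity genes 0.48, antigen presentation genes 0.39, lysosomal genes 0.30, IFN-γ response genes 0.49, type I interferon response genes 0.53, chemokines 0.88 and cytokines 0.96. Of 23 cytokine genes, 19 were above the median of all genes, as were 13 of 17 chemokine genes that averaged 1 TPM or more, 14 of 25 IFN-γ response genes, 9 of 18 macrophage identity genes, 8 of 19 lysosomal genes and 4 of 19 glycolytic genes. Without library 5 the medians were 0.88 for cytokines, 0.89 for chemokines, 0.41 for IFN-γ response genes, 0.32 for macrophage identity genes, 0.31 for lysosomal genes and 0.20 for glycolytic genes. Those of type I interferon response genes and antigen presentation genes were 0.41 and 0.33.

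**Figure D3:**
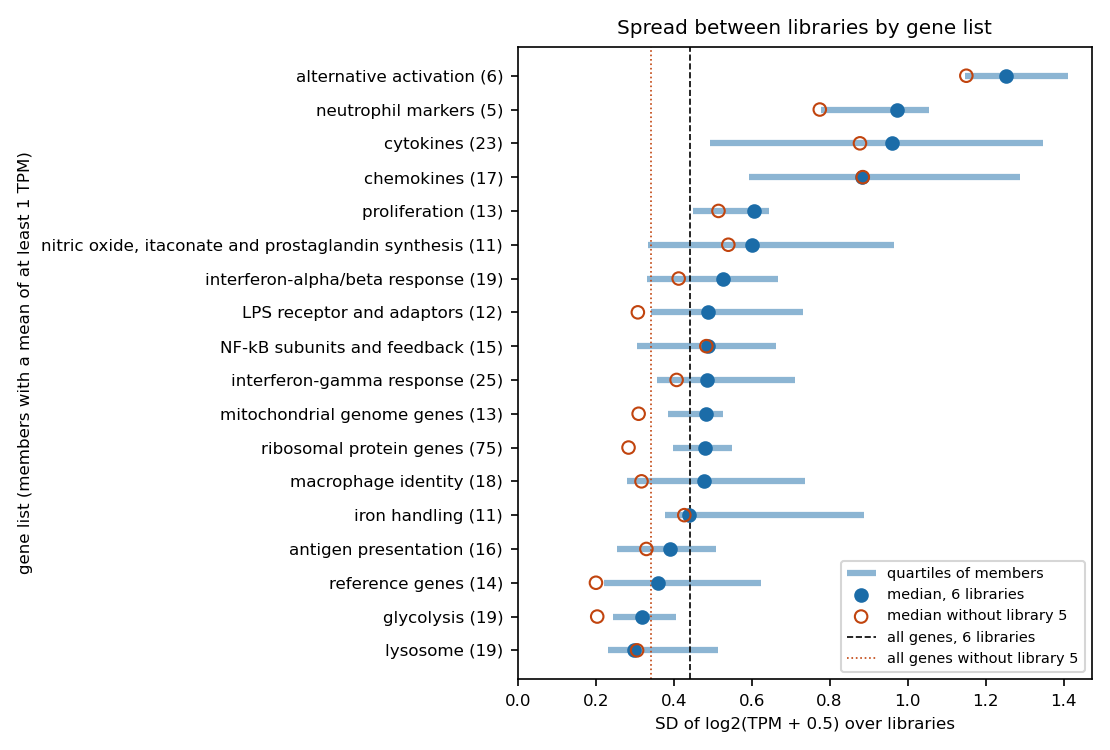
SD of log2(TPM + 0.5) over libraries (horizontal axis) for gene lists with at least 5 members of at least 1 TPM (vertical axis, number of such members in brackets). Filled points are medians over 6 libraries with quartiles of the members, open points medians without library 5, and vertical lines the medians of all 8694 genes. Cytokines (0.96) and chemokines (0.88) lie to the right of all genes (0.44), while glycolysis (0.32) and lysosome (0.30) lie to the left.

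All 23 cytokine genes of the list averaged 1 TPM or more, and together they held 2.80 ± 1.76% of the TPM in the table. Their sum was 38239 TPM in library 3, the library with the fewest genes above 0, 23276 TPM in library 1, and 8610 to 13084 TPM in libraries 2, 4, 5 and 6. Il1b, the secreted IL-1β, led with a lowest value of 3366 TPM, a median of 5660 TPM and a highest value of 14270 TPM. Il12b had 8490 TPM in library 3, 5805 TPM in library 1, 1373 TPM in library 6, and 405 to 738 TPM in libraries 2, 4 and 5, and its mean of 2908 TPM was 1792 TPM without library 3. Il6 had 518 to 1194 TPM in libraries 2, 4, 5 and 6, against 1876 TPM in library 1 and 3338 TPM in library 3. Il1a, the IL-1α gene, followed the same order at its top, with 2827 TPM in library 3 and 1289 TPM in library 1 and a lowest value of 146 TPM in library 5. Libraries 1 and 3 were the 2 highest for 12 of 23 cytokine genes (52.2%), against 11.7% of all 8694 genes, and for 12 of 23 also after libraries were rescaled by median ratios. At least Il12a and Il23a averaged 1 TPM or more only through libraries 1 and 3, so the filter itself fixed their place in this count. The 12, all members of the list of 23, were Tnf, Il1a, Il1b, Il6, Il12a, Il12b, Il23a, Il27, Ifnb1, Osm, Lif and Tnfsf15. The last 4 of these would not have been named by the rule for named genes, and are named because they complete the count. Beside this stand the stromal list, whose sum was highest in library 1 (89.3 TPM) and near its lowest in library 3 (13.4 TPM, with 11.0 TPM in library 2), and the dendritic cell list, whose sum was highest in libraries 1 and 3 (105 and 89.4 TPM, against 39.4 to 53.9 TPM in the other 4). Their part in the cytokine values was not tested. On average most of the dendritic cell sum came from Ccr7, which the paper places in its set of M1 genes, so that sum is no measure of dendritic cells alone. Tgfb1, a regulatory cytokine, had the smallest spread of the list (87.9 ± 15.3 TPM, SD of log2 0.26), and Ebi3, the partner of the IL-27 subunit encoded by Il27, was lowest in library 3 at 470 TPM and highest in library 2 at 910 TPM.

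**Figure D4:**
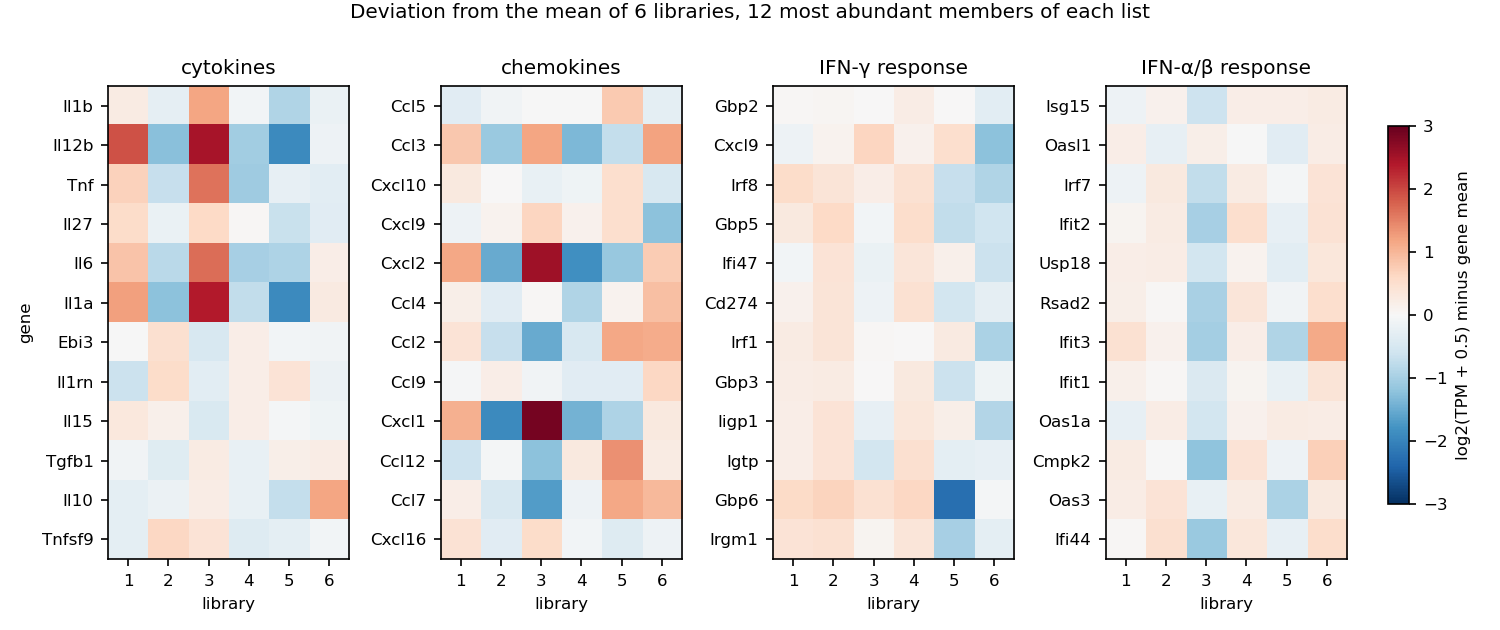
Deviation of log2(TPM + 0.5) from the gene's mean over 6 libraries (colour scale, red above and blue below the mean) in libraries 1 to 6 (columns) for the 12 most abundant members of 4 lists (rows). Il12b, Il6, Il1a, Cxcl2 and Cxcl1 are red in libraries 1 and 3 and blue in 2, 4 and 5, type I interferon response genes other than Oasl1 are blue in library 3, and Gbp2 is pale throughout.

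The promoter of Il12b is shown because Il12b had the largest spread of the 17 cytokine genes that averaged 10 TPM or more. The 250 bases before its start (chr11:44399813-44400062, plus strand, RefSeq, GRCm38.p6) held none of 3 motifs searched on both strands, which were the core of an interferon-stimulated response element (ISRE, GAAANNGAA), a gamma-activated site (GAS, TTCNNNGAA) and the first 9 bases of a κB site (GGGNNNTTC), and the whole run is in lower case for that reason. The search covered these letters only, and partial or variant sites were not searched, so it is no proof that such sites are absent.
Il12b: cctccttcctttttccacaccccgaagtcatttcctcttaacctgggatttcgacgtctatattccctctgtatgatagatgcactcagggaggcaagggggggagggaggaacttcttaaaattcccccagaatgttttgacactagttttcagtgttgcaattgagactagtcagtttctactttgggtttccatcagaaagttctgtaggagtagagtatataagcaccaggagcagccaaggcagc

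Chemokine genes held 4.79 ± 0.817% of the TPM in the table, and 17 of 20 averaged 1 TPM or more. They did not share 1 order of libraries. Ccl3, the MIP-1α gene, was at 8190 and 8349 TPM in libraries 3 and 6, 6328 TPM in library 1 and 1421 to 2204 TPM in libraries 2, 4 and 5. Ccl4, the MIP-1β gene, had a smaller range of 902 to 3132 TPM. The neutrophil chemokine genes Cxcl1, Cxcl2 and Cxcl3 were all highest in library 3, at 1128, 5914 and 628 TPM. Their lowest values were 40.4, 282 and 7.68 TPM, in libraries 2, 4 and 2, and Cxcl3 had the largest spread of the list (SD of log2 2.63). By contrast the monocyte chemokine gene Ccl2 was lowest in library 3 at 130 TPM and highest in libraries 5 and 6 at 840 and 812 TPM. The CXCR3 ligand genes Cxcl10 (2484 ± 621 TPM) and Cxcl9 (2225 ± 825 TPM), both induced by IFN-γ, were lowest in library 6. Cxcl10 had the smallest spread of the list (SD of log2 0.35).

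The κB letters above were found in 7 of 14 chemokine promoters matched by symbol (50%), in 4 of 19 cytokine promoters (21.1%), and in 11.8% of 32851 promoters of the RefSeq table, of which the same 250 bases were read. The Cxcl2 promoter (chr5:90903649-90903898, plus strand, RefSeq, GRCm38.p6) is shown because Cxcl2 was the chemokine gene whose 21-fold range over libraries matched that of Il12b, and because it held 3 matches, 1 of them on the other strand and overlapping the first. Capitals mark the matches. They begin 97, 95 and 78 bases before the start, and describe the letters only.
Cxcl2: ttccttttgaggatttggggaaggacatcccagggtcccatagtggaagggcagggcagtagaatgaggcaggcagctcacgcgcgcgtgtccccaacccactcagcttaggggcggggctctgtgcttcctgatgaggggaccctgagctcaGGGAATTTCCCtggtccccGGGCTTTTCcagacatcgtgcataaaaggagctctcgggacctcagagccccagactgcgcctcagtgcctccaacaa

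IFN-γ response genes were abundant, and all 25 averaged 1 TPM or more. Gbp2, a guanylate-binding protein of cell-autonomous defence, led with 1931 to 2813 TPM and an SD of log2 of 0.18, the smallest of the list. Gbp5, which promotes inflammasome assembly, was at 467 to 1181 TPM, lowest in libraries 5 and 6. The transcription factor genes Irf8 (423 to 1153 TPM) and Irf1 (253 to 639 TPM) were both lowest in library 6, and Irf1 in the other 5 libraries did not go below 491 TPM. The PD-L1 gene Cd274 was at 738 ± 199 TPM. Gbp6 had the largest spread of the list (SD of log2 1.14), which was 0.30 without library 5, but 94.4% of its 31-base words occur in transcripts of other genes, so reads cannot be assigned to it alone. Of the 25 genes, 11 were highest in library 2 (44.0%), against 11.8% of all genes, and 0 in library 6, against 13.3%. Library 6 was the lowest for 7 (28%), against 10% of all genes.

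The promoter of Gbp2 is shown as that of the steadiest abundant gene of this list. ISRE cores were found in 10 of 20 IFN-γ response promoters (50%) and 8 of 18 type I interferon response promoters (44.4%), against 7.13% of all promoters, and GAS letters in 7 of 20 (35.0%) and 2 of 18 (11.1%), against 7.02%. Gbp2 (chr3:142620413-142620662, plus strand, RefSeq, GRCm38.p6) held an ISRE core on the minus strand from 58 bases before the start and the κB letters from 200 bases before it, both in capitals.
Gbp2: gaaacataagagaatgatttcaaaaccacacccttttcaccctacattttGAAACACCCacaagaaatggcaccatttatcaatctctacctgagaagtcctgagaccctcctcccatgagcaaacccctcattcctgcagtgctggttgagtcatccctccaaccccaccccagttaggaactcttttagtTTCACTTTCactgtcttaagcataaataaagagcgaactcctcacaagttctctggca

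The type I interferon response list had 19 of 20 genes at an average of 1 TPM or more, and Mx2 was listed at 0 in all libraries. Isg15, a ubiquitin-like modifier, was at 1673 TPM in library 3 and 2304 to 3046 TPM in the others. Oasl1 (702 to 1035 TPM), Irf7 (470 to 1037 TPM) and the antiviral Ifit2 (279 to 782 TPM) followed. Library 3 was the lowest for 11 of the 19 genes (57.9%), against 24.2% of all genes, and library 6 the highest for 10 (52.6%), against 13.3%. After median-ratio rescaling library 3 was still the lowest for 11, and library 6 the highest for 8. Library 5 was the lowest for the remaining 8 (42.1%), against 29.4%. The median spread of the list was 0.53, and 0.32 without library 3. The library with the highest Il12b, Tnf and Cxcl2 was thus not the one with the highest type I interferon response genes.

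Of the LPS receptor and adaptor genes 12 of 13 averaged 1 TPM or more, as did all 15 NF-κB genes. Cd14, which hands LPS to the TLR4 complex, was at 1130 to 5279 TPM, highest in library 3. Ly96, encoding MD-2, was at 41.8 ± 11.7 TPM, and Tlr4 was at 17.1 ± 6.97 TPM, lower than Tlr2 (75.7 ± 40.5 TPM) in all 6 libraries. The adaptor gene Myd88 was at 169 to 207 TPM with an SD of log2 of 0.12, while the kinase gene Irak2 was at 22.5 TPM in library 5 and 79.6 to 129 TPM in the others. Nfkbia, the NF-κB inhibitor IκBα, was at 733 to 1071 TPM (SD of log2 0.19), Nfkbib at 274 to 400 TPM, Socs3 at 333 to 557 TPM and the deubiquitinase gene Tnfaip3 at 159 to 568 TPM. Nfkb1, the p105 precursor of p50, was at 47.0 TPM in library 5 and 134 to 425 TPM in the others. Library 3 was the highest for 9 of the 15 NF-κB genes (60.0%), against 21% of all genes, and library 5 the lowest for 10 (66.7%), against 29.4%. The IFN-γ receptor chain gene Ifngr2 (112 ± 18.9 TPM) was above Ifngr1 (18.8 ± 3.90 TPM) in every library, and of the TNF receptors Tnfrsf1b (739 ± 212 TPM) was above Tnfrsf1a (147 ± 24.2 TPM).

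Among enzymes of inflammatory mediators, Acod1 and Sod2 (571 ± 77.6 TPM, SD of log2 0.19) were steady and Ptgs2 was not. Ptgs2, the inducible cyclooxygenase, was at 7090 TPM in library 3, 4068 TPM in library 1, 2204 TPM in library 6 and 855 to 1651 TPM in libraries 2, 4 and 5. Nos2, the inducible nitric oxide synthase, was listed at 0.220, 45.2, 6.37, 139, 0 and 55.1 TPM in libraries 1 to 6, the largest spread of the list (SD of log2 3.43). Of the 31-base words in its listed transcript, 97.0% also occur in transcripts of the gene that are not in the table, so reads of Nos2 can have been counted outside the table. Ass1, which recycles citrulline to arginine, was at 104 to 357 TPM.

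Glycolytic genes held 1.52 ± 0.136% of the TPM in the table and all 19 averaged 1 TPM or more. Gapdh (1502 ± 236 TPM), Aldoa (1477 ± 262 TPM), Pkm (1248 ± 211 TPM) and Ldha (1157 ± 300 TPM) led. Of the 19 genes, 11 were highest in library 5 (57.9%), against 30.9% of all genes. Gpi1 had the smallest spread (SD of log2 0.17) and Pfkfb3, which makes the activator of phosphofructokinase, the largest (2.57, and 0.95 without library 5, where it was listed at 1.34 TPM). All of its 31-base words occur in unlisted transcripts of the gene.

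MHC class I genes H2-D1 (3167 ± 495 TPM) and H2-K1 (2879 ± 443 TPM) were close in level, and the class II genes H2-Ab1 and H2-Aa both had their highest values in library 3, at 5114 and 4102 TPM, and their lowest in library 6, at 1697 and 1394 TPM. The peptide-loading chaperone gene Tapbp was at 514 to 631 TPM (SD of log2 0.11). Among costimulators Cd86 was at 214 to 351 TPM and Cd80 at 17.6 to 88.4 TPM, the largest spread of the antigen presentation genes that averaged 10 TPM or more. Of 16 antigen presentation genes, 9 were lowest in library 6 (56.2%), against 10% of all genes, and 7 were highest in library 3 (43.8%), against 21%. Library 6 also had the highest sums of the osteoclast list (84.6 TPM) and the B cell list (6.85 TPM), and the part of other cells in these values was not tested.

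Lysosomal genes were led by the proteases Ctss (2871 to 6096 TPM), Ctsb (1183 to 2183 TPM) and Ctsz (1130 to 1777 TPM) and by Grn, encoding progranulin (739 to 1208 TPM). Npc2, a cholesterol carrier, had the smallest spread (612 to 731 TPM, SD of log2 0.10). Iron genes held 5.68 ± 1.10% of the TPM in the table, nearly all from Fth1 and Ftl1 (7375 ± 2238 TPM). The haem oxygenase gene Hmox1 ranged from 302 TPM in library 4 to 1913 TPM in library 5, Lcn2, a siderophore binder, from 117 TPM in library 3 to 612 TPM in library 6, and the phagosomal iron transporter gene Slc11a1 from 175 to 267 TPM. Among macrophage identity genes C1qc was the steadiest (1936 to 2468 TPM, SD of log2 0.13), and the scavenger receptor gene Marco the least steady, with 514 and 379 TPM in libraries 5 and 6 against 49.6 to 82.4 TPM in the others.

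Genes of alternative activation held little of the TPM in the table, and most of it came from Ccl22. The 2 highest libraries of Ccl22 were 1 and 3, as for Il12b and Tnf. Ccl22 was at 51.7 to 194 TPM, and the next were Pdcd1lg2 (0.900 to 21.3 TPM), Mrc1 (1.60 to 19.4 TPM) and Chil3 (1.54 to 14.5 TPM), while Retnla was listed at 0 in all 6 libraries. Of the 14 genes of this list 6 averaged 1 TPM or more, a share close to that of all genes (8694 of 22243). The whole list held 0.0208 ± 0.00771% of the TPM in the table.

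Erbb4, the floxed gene (chr1:68032186-69108059), was under 1 TPM in every library, with 0.373, 0.397, 0.716, 0.430, 0.372 and 0.411 TPM in libraries 1 to 6. Its rank was between 8535 and 9889 of 22243 genes, of which 10910 to 12830 were above 0 in a library. The other ErbB receptor genes also averaged under 1 TPM, with means of 0.876 TPM for Erbb3, 0.513 TPM for Egfr and 0.0254 TPM for Erbb2. Of the ligand genes, Hbegf had 3.13 ± 2.35 TPM, Areg 7.29 TPM in library 3 and 0 to 0.631 TPM in the others, and Ereg 0.266 to 4.56 TPM. Btc and Tgfa had means of 0.0556 and 0.00353 TPM, and Nrg1, Nrg2, Nrg3, Nrg4, Egf and Epgn were listed at 0 in all 6 libraries, which is no proof of absence, as the depth is not in the table.

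Related genes were compared within libraries, where library scale cancels. For 28 pairs the log2 ratio of (TPM + 0.5) was tested by two-sided exact permutation over the 64 sign flips of 6 libraries. In 22 pairs all 6 libraries went the same way, with an exact p of 0.0312, the smallest that 6 libraries can give, and a Benjamini-Hochberg adjusted p of 0.0398 over the 28. The pairs were chosen with earlier results of these data known, so these p-values describe a shared direction and not the size of a ratio. The adjusted value of each pair also depends on how many of the other pairs reach the smallest p. The first gene was higher in 16 of the 22 and the second in 6. Fth1 exceeded Ftl1 by a log2 of 1.93 ± 0.33 (SD, n = 6), Lyz2 exceeded Lyz1 by 8.90 ± 1.25, Il1b exceeded Il1a by 3.51 ± 1.00, and Cxcl2 exceeded Cxcl1 by 2.72 ± 0.38, although both of that pair differed more than 20-fold between libraries. The ratio of Tnf to Il6 was likewise narrow (0.67 ± 0.39) beside the range of each gene. Il12b exceeded Il10 by 4.91 ± 1.74 (4.24 with the most abundant transcript of each gene alone), Il27 exceeded Ebi3 by 1.47 ± 0.69, Ccl5 exceeded Ccl2 by 5.30 ± 1.05, Sod2 exceeded Sod1 by 0.88 ± 0.50, Cd86 exceeded Cd80 by 2.99 ± 0.58, Cd274 exceeded Pdcd1lg2 by 6.94 ± 1.55, Ldha exceeded Ldhb by 8.33 ± 0.78 and Tnfrsf1b exceeded Tnfrsf1a by 2.29 ± 0.47. Ptgs2 exceeded Ptgs1 by 9.73 ± 2.18, or 8.92 without library 3, where Ptgs1 was listed at 0. Il12a, the p35 subunit that pairs with p40 in IL-12, was listed at 6.63 and 27.5 TPM in libraries 1 and 3, at 0 in libraries 2 and 4 and at 0.00552 and 7.73e-05 TPM in libraries 5 and 6. Il23a, the p19 subunit of IL-23, was at 3.0 and 15.2 TPM in libraries 1 and 3 and at 0.0789 to 0.177 TPM in the others. Both were far below Il12b in every library, and 94.7% of the 31-base words of Il12a occur in unlisted transcripts of the gene.

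The second gene was higher in pairs such as Ccl4 and Ccl3 (log2 of -1.12 ± 0.81), Psmb9 and Psmb6 (-2.11 ± 0.35), H2-K1 and H2-D1 (-0.14 ± 0.12), Tlr4 and Tlr2 (-2.05 ± 0.92), and Ifngr1 and Ifngr2 (-2.55 ± 0.48). Thus of the 3 immunoproteasome subunits, Psmb9 was below its constitutive counterpart in all libraries, while Psmb8 against Psmb5 (0.49 ± 0.43, higher in 5 of 6, adjusted exact permutation p = 0.109) and Psmb10 against Psmb7 (-0.16 ± 0.31, higher in 3 of 6, adjusted exact permutation p = 0.344) did not pass the test. Nor did Irf1 against Irf8 (-0.68 ± 0.50, lower in 5 of 6, adjusted exact permutation p = 0.0761), Cxcl10 against Cxcl9 (0.23 ± 0.56, adjusted exact permutation p = 0.324) or H2-Ab1 against H2-Aa (0.11 ± 0.16, adjusted exact permutation p = 0.168). Of the pair genes named here, Ftl1 shares 85.4% of its 31-base words with other genes, Psmb5 74.0%, Ldhb 41.4%, Sod1 35.4%, Lyz1 34.2%, Ldha 33.6%, Lyz2 32.8%, H2-D1 27.5%, H2-K1 23.3%, Psmb6 15.4% and Fth1 12.9%, so the levels and ratios of these genes are uncertain where reads were split between copies.

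**Figure D5:**
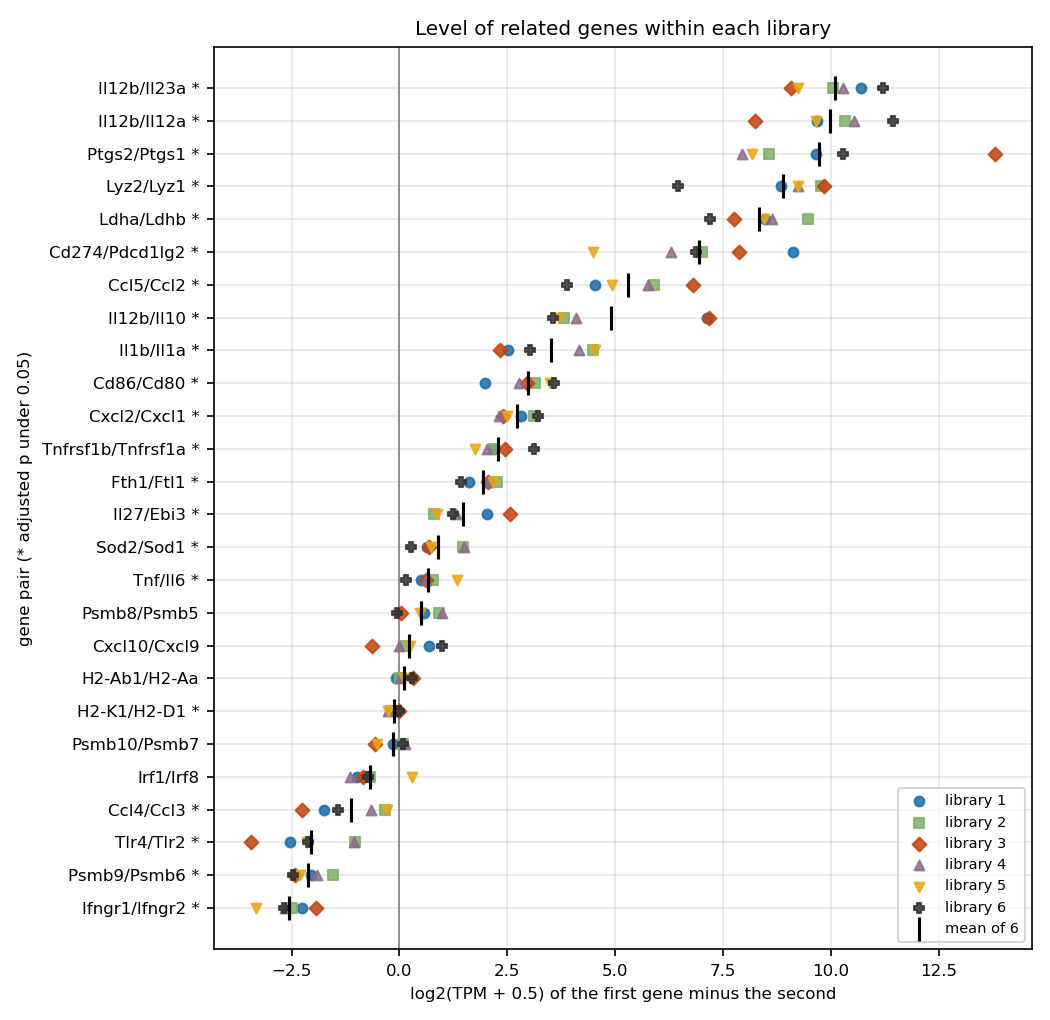
Difference of log2(TPM + 0.5) between the 2 genes of each of 26 pairs (horizontal axis, first gene minus second), with 1 symbol for each of the 6 ErbB4FF libraries and a bar for the mean. Asterisks mark the 21 pairs with an adjusted p under 0.05, in which no symbol crosses 0, and the pairs Cxcl2/Cxcl1 and Tnf/Il6 are tight although each gene ranges widely.

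Among 4180 genes above 0 in every library that averaged 10 TPM or more, the 10 of smallest spread were Ramac (28.3 to 29.7 TPM, SD of log2 0.02), Ube2d3 (395 to 424 TPM), Gsk3a, Smndc1, Eif2b5, Copg1, Lrrc41, Acly, Rab20 and Hnrnpf, with an SD of log2 of at most 0.07. None of the 14 genes often used as references was among them, but only 10 places of 4180 were open. Of the 14, Sdha was the steadiest over 6 libraries (61.8 to 74.4 TPM, SD of log2 0.10), then B2m (0.12, percentile 2.2 of the 8694 genes) and Ywhaz (0.13), while Actb had 0.58 with 11025 TPM in library 5, Gapdh had 0.23, Hprt 0.23, Pgk1 0.27, Ppia 0.45, Rplp0 0.50, Gusb 0.67, and Tfrc and Tbp 1.30 and 1.33 at means of 7.76 and 2.61 TPM. Several of these rested on library 5. Without it the SD of log2 was 0.08 for Pgk1, 0.10 for Hprt and B2m, 0.11 for Sdha, 0.14 for Ywhaz, 0.20 for Gapdh and Ppia, 0.31 for Rplp0, 0.38 for Actb, 0.46 for Gusb, 0.69 for Tfrc and 1.43 for Tbp. The median of the reference list was 0.36, and 0.20 without library 5.

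Among the same 4180 genes the 10 of largest spread were Dynlrb1, Mllt6, Sirt2, Crbn, Gm20721, Rnf213, Cxcl3, Pfkfb3, Tpr and Ppfibp1, with an SD of log2 of 2.51 to 2.88. The limit to genes above 0 in every library leaves out 13 genes that averaged 10 TPM or more, among them Nos2, whose SD of log2 was larger (3.43). In 7 of the 10 named genes 1 library was under 0.1 TPM, as in 33 of all 4193 genes that averaged 10 TPM or more. A library near 0 gives a large SD of log2 by construction. In 7 of the 10 the lowest library was library 5, against 29.4% of all 8694 genes. Of the 10, 9 share more than 50% of their 31-base words with unlisted transcripts of the same gene. Among all 8694 genes, 2178 share 50 to 90% and 2772 share 90% or more. Crbn shows such a low library, with 46.7 to 61.5 TPM in 5 libraries and 0.0120 TPM in library 5. Without library 5 the 10 genes of largest spread held 3 of the 10 named. Over all 8694 genes the median SD of log2 was 0.37 where under 50% of the words were shared with unlisted transcripts (2769 genes), 0.43 at 50 to 90% (2178 genes), 0.56 at 90% or more (2772 genes) and 0.48 where the gene has no unlisted transcript (975 genes), and an exact 0 in some library was found in 0.722%, 4.59%, 12.5% and 6.36% of them. Cxcl3 had 91.8% shared with an unlisted transcript. Il12b has no unlisted transcript, shares 0.407% with other genes and was the fifth in spread (SD of log2 1.80) among the 433 such genes that averaged 10 TPM or more.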

How the data were processed

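RNA of 6 ErbB4FF cultures of BM-Mɸs was measured, 1 library per mouse and litter. The authors quantified reads with kallisto against mouse transcripts, and the deposited values are TPM of the principal transcripts, with CASAVA, kallisto, sleuth and the build mm10 named in the submitters' processing notes and no versions. The table holds 29213 lines. Of these, 405 repeat a transcript and were dropped, and TPM of the remaining 28808 transcripts were summed over 22243 genes. The listed TPM add up to 59.0 to 74.7% of the fixed total of each library, so reads were also given to transcripts that are not listed. Read depth is not in the table, so no counting interval was computed, and the number of libraries limits the precision. Columns of the authors' own comparison of genotypes (p-values, q-values, ratios and means) and the 6 libraries with LysMCre were not used.

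All values were placed on the log2(TPM + 0.5) scale for spread and ratios, in genes that averaged 1 TPM or more. The pseudocount understates differences of low genes. Spread is the SD over 6 libraries. The 28 gene pairs were tested by a two-sided exact sign-flip permutation, adjusted by Benjamini-Hochberg. Values of some genes and pairs that were computed and counted are not reported here. The libraries are separate mice, so p-values measure the spread between mice, litters and batches together. Positions came from GENCODE M21 (GRCm38), in which all 28808 transcripts were found when the version was ignored, and promoters came from RefSeq (GRCm38.p6). Sharing of reads was judged from 31-base words that a listed transcript has in common with other transcripts.

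Genes were named by rule: the 6 markers, the 20 most abundant genes, up to 4 most abundant members of each list with its largest and smallest spread at a mean of at least 10 TPM, members under 1 TPM of short lists, the 10 largest and 10 smallest spreads, the pairs, the reference genes, and the ErbB receptors and ligands. The libraries were taken by their genotype label, but the choice of this group as the subject, of the 27 lists and of the pairs was made with earlier results of these data known. The list counts and the p-values of the pairs are therefore descriptions. Alternatives were other pseudocounts (0.1 and 1), filters and scalings, the most abundant transcript alone, and each library left out. Tested on simulated data for 4193 genes with 200 made wide, the spread step placed 189 of them among the 200 largest, and the pair step called 20 of 20 pairs with a log2 ratio of 2 and 0 of 8 without one. The simulated pairs all had the same spread and no trend over length, unlike the real pairs, so these rates do not carry over to them. Python 3.11.15, numpy 2.4.6, pandas 2.3.3 and matplotlib 3.10.9 were used.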

Additional observations from a re-analysis of the deposited data

Results flagged for a closer look

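Of 91 values checked for a library far from the other 5 by Dixon's criterion at the 95% level, 11 passed it, and 9 of the 11 were in library 5. The 91 were 85 genes and 6 library measures, and not every gene named above was among them. All came from the same 6 libraries and are not independent, so the rate of 1 in 20 for independent values is no measure of chance here. In library 5 the listed TPM made up 74.7% of the fixed total and the 20 most abundant genes held 27.1%, both the highest of the 6.

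Ccl5 reached 25396 TPM in library 5 against 11618 to 14594 TPM in the others. The mitochondrial oxidase subunit genes mt-Co2 and mt-Co3 reached 9387 and 8578 TPM there, against 2347 to 3869 TPM and 3274 to 4677 TPM. Fcer1g, the Fc receptor gamma chain, reached 6049 TPM against 3216 to 3829 TPM. The glycolytic genes Ldha and Pgk1 reached 1745 and 1435 TPM, against 931 to 1146 TPM and 889 to 1010 TPM. Mmp13 was far below the others instead, at 971 TPM against 3698 to 4488 TPM. The listed transcripts of Ccl5, mt-Co2, mt-Co3 and Fcer1g have 532, 684, 784 and 674 bases, and transcripts under 1 kb were higher in library 5 by a median log2 of 0.77. Those of Ldha, Pgk1 and Mmp13 have 1588, 1825 and 2673 bases. The part of transcript length in these values was not tested.

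In library 6 the IFN-γ response factor gene Irf1 was at 253 TPM, against 491 to 639 TPM. In library 3 the ErbB ligand gene Areg was at 7.29 TPM, against 0 to 0.631 TPM.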

How the results depend on the processing

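No paired analysis was possible because the 6 libraries form 1 group and the genotypes were not compared. The number of genes over the filter was 8694 at a mean of at least 1 TPM and 5751 at 5 TPM. The median SD of log2 over all genes was 0.34 without library 5, within a range of 0.34 to 0.46 over the 6 libraries left out in turn. The 22 gene pairs remained 22 with either pseudocount and with the most abundant transcript alone, and all 252 recomputed pair ratios kept their direction. With 5 libraries the smallest exact permutation p is 0.0625, so leaving out a library gave values and no test.

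Of 192 recomputed list medians of the SD, 8 moved by more than their spread. They were macrophage identity (0.32), LPS receptor and adaptors (0.31), glycolysis (0.20) and reference genes (0.20) without library 5, NF-κB genes (0.38) without library 6, proliferation (0.45) and megakaryocyte markers (0.36) without library 2, and neutrophil markers (0.65) with the trend over transcript length taken away, a setting chosen after seeing the data. With that trend taken away the median SD was 0.39 for all genes, 0.84 for cytokines, 0.81 for chemokines, 0.23 for glycolysis and 0.33 for lysosomal genes. The causes were not tested. Levels near 0, such as those of Erbb4 and the neuregulins, are limited by a depth that the table does not give.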
